A study of Mus musculus with 4 samples.

Results

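The genes described here are 8 fatty acid oxidation and fasting genes of mouse liver, *Cpt1a*, *Cpt2*, *Ehhadh*, *Acadm*, *Pdk4*, *Fgf21*, *Angptl4* and *Plin2*, out of 21911 protein-coding genes. They were picked by name, with earlier results of these data known. Collected were all called peaks of the glucocorticoid receptor (GR) and of E2A with an edge within 50 kb of these gene starts. They were taken whichever gene the deposited annotation names as the nearest. This gave 48 of 17545 peaks. The peaks came from ChIP-Seq, in which an antibody pulls down the DNA fragments that a protein is cross-linked to, in livers of wild-type male C57BL/6J mice taken at ZT10, late in the light phase. There were 4 samples, 2 biological replicates with a GR antibody and 2 with an E2A antibody. The E2A antibody recognises products of *Tcf3*, so that E47 and E12 cannot be told apart in these lists.

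All 4 samples had the same genotype (E47+/+), strain, sex, tissue and time of day, and the groups differed by the antibody and by the number of read pairs kept, 18 mio for GR and 22 mio for E2A. The study's text says that the E2A ChIP was done in the same livers as the GR ChIP, so that these are not 4 independent animals, and the labels do not say which GR and E2A samples share a liver. The mice were 10 to 16 weeks old by the study's methods and were fed chow ad libitum under a 12 h light and 12 h dark cycle. No withdrawal of food is stated for them. When they had last eaten before ZT10 is not given, so the feeding state of these livers is not known. The labels call the animals untreated, while the description of one supplementary list of the study calls the livers Dex-treated. The free-text descriptions of both E2A samples name a GR ChIP, the second one in E47-/- mice, whereas their titles, antibody and genotype fields name E2A in wild type, and E2A in wild type was taken as correct. For GR, replicates 1 and 2 are numbered as in the labels, whereas the deposited file titles number them the other way round. The lists held 4291 and 7334 peaks for GR and 4028 and 1892 for E2A. Among 8 hepatocyte marker genes, 8 had a GR peak labelled as promoter and 5 an E2A one, against 0 and 0 of 6 B cell markers, 0 and 0 of 5 T cell markers, 1 and 0 of 5 macrophage markers and 0 and 0 of 5 endothelial and stellate markers. Promoter peaks of GR named 18.3% of all protein-coding genes and those of E2A 7.86%. Within 50 kb, a peak can belong to a neighbour. A GR peak lay there for 8 of 8 hepatocyte, 3 of 6 B cell and 4 of 5 T cell markers. Such a peak also lay near 1 of 5 macrophage and 3 of 5 endothelial and stellate markers, against 44.0% of all genes. In the same order, E2A had one for 8 of 8, 1 of 6, 4 of 5, 1 of 5 and 3 of 5, against 28.7%. The part of cells other than hepatocytes in the results was not tested.

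The lists give each peak's position, width, gene feature and nearest gene, with no height, q-value or read count. A peak is therefore only called or not called, and the number of reads under it is unknown. A gene without a peak had none above the threshold of the peak caller, which is not the same as no binding. Where peaks of both replicates with the same antibody share at least 1 bp they were joined into a region, and a GR region that shares at least 1 bp with an E2A region is called shared. Distances run from the nearest edge of a peak to the start of the gene in GENCODE, negative upstream, and coordinates are mm10.

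In the fasting liver, fatty acids released from adipose tissue are burned in mitochondria. They enter as acylcarnitines through the carnitine palmitoyltransferases and are shortened by beta-oxidation, which also takes place in peroxisomes, and the acetyl-CoA feeds ketone body synthesis. The nuclear receptor PPARα is the best known activator of these genes, and glucocorticoids, which rise in the hours before feeding, induce several of them through GR. GR binds DNA as a dimer at a glucocorticoid response element (GRE), written here as AGAACA, 3 bases of any kind and TGTTCT, while E47 is a basic helix-loop-helix factor that binds the E-Box CANNTG.

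GR had 20 regions within 50 kb of 7 of the 8 genes, of which 13 had the gene itself as the nearest. GR promoter peaks named 5 of the 8, against 18.3% of all protein-coding genes. By sample, they named 3 in replicate 1 and 5 in replicate 2. Promoter peaks made up 34.3% of the list of GR replicate 1 and 57.4% of that of GR replicate 2. E2A had 13 regions near 6 of the 8, of which 6 had the gene itself as the nearest, and E2A promoter peaks named 0 of the 8, against 7.86% of all genes. *Angptl4* and *Cpt1a* carried the most GR regions, 6 and 5, against a median of 0 over all protein-coding genes, and 2.59% and 4.31% of those had as many or more. Of the 20 GR regions, 5 met an E2A region, beside the 30.6% of GR regions near any gene that did so, and only 1 of these 5, in the last exon of *Angptl4*, had one of the 8 genes as its nearest. The other 4 were nearest to a neighbouring gene. *Pdk4* had no peak of either protein within 50 kb, nor within 100 kb.

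**Figure D1:**
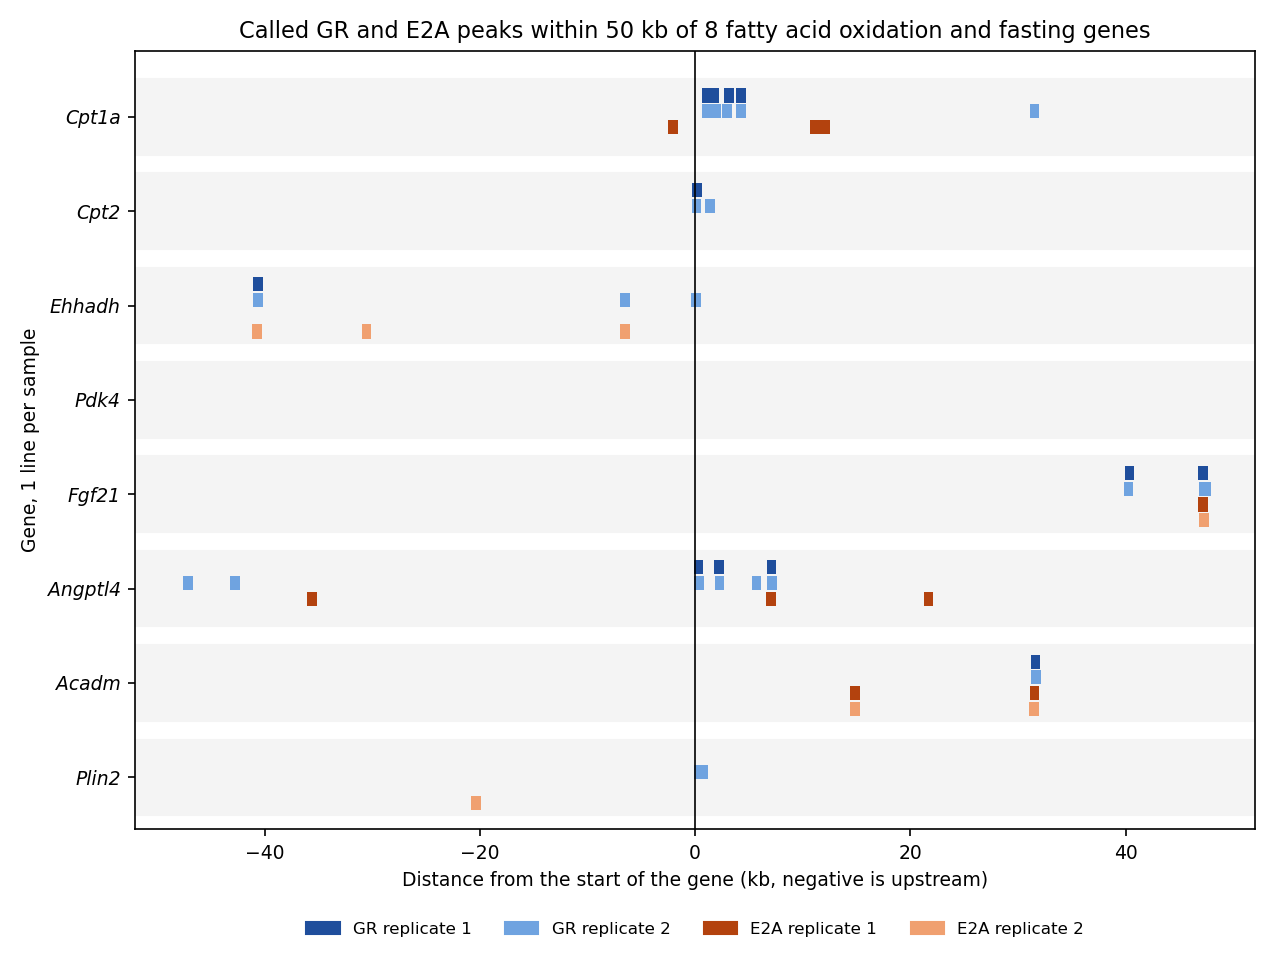
Called peaks within 50 kb of the 8 genes. The x axis is the distance from the start of the gene in kb (negative is upstream), each gene has 1 line per sample, each block is 1 peak at its true centre, and peaks narrower than 0.9 kb are drawn 0.9 kb wide. GR blocks lie over the start of Cpt2, Ehhadh, Angptl4 and Plin2 and from 863 bp downstream of it at Cpt1a, with others farther out at Cpt1a, Ehhadh and Angptl4, no E2A block lies over a start, and Pdk4 has no block.

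The sequences that carry these positions are given first. All are read from the mm10 reference on the plus strand, in lower case, with the named motif in capitals. The GRE within the *Angptl4* 3′ UTR is the only exact match in any of the 33 regions, and the GRE in intron 1 of *Cpt2*, the only one in the 300 central bases of a GR region, has 2 mismatches in the 12 fixed bases.
Angptl4 3′ UTR, GRE in capitals, chr17:33774884-33774913: acaacagAGAACAAAATGTTCTgaggttgt
Cpt2 intron 1 GR region, GRE in capitals, chr4:107922066-107922361: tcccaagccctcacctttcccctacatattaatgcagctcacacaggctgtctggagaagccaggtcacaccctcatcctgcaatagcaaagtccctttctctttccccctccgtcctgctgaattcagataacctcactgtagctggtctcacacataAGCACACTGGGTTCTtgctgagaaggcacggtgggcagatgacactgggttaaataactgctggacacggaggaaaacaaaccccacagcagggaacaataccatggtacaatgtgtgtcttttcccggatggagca

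The number of peaks differed between samples of the same antibody as well as between antibodies. Within 50 kb of the 8 genes there were 12 peaks in GR replicate 1, 20 in GR replicate 2, 9 in E2A replicate 1 and 7 in E2A replicate 2. The GR mean was 16 ± 5.7 (SD, n = 2) and the E2A mean 8 ± 1.4 (SD, n = 2), with no overlap between the groups, but an exact permutation test (two-sided) gave p = 0.333, the smallest that 2 against 2 samples allow. Paired by the replicate number of the labels, GR had 3 and 13 peaks more than E2A, with an exact permutation p of 0.5, the smallest that 2 pairs allow. Set against the length of each list, the same counts came to 2.80 and 2.73 per 1000 GR peaks and to 2.23 and 3.70 per 1000 E2A peaks, so that the groups overlapped on this scale. Peaks with one of the 8 genes as the nearest numbered 8 and 13 for GR and 5 and 2 for E2A.

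A GR peak lay within 50 kb of 6 of the 8 genes in replicate 1 and of 7 in replicate 2, where 23.6% and 41.8% of all protein-coding genes had one. For E2A the count was 4 of 8 in each replicate, against 26.5% and 13.7% of all genes. Over both replicates 7 of 8 had a GR peak (44.0% of all genes), 6 of 8 an E2A peak (28.7%) and 4 of 8 a GR region that met an E2A region (19.4%). By the deposited nearest gene, 5 of 8 were named by a GR peak (23.4% of all genes) and 5 of 8 by a GR promoter peak (18.3%), while 4 of 8 were named by an E2A peak (13.8%) and 0 of 8 by an E2A promoter peak (7.86%). The background holds genes that are silent in liver as well, and it was not matched for expression. The 8 genes were chosen with earlier results of these data known, so the shares are not those of a blind list.

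**Figure D2:**
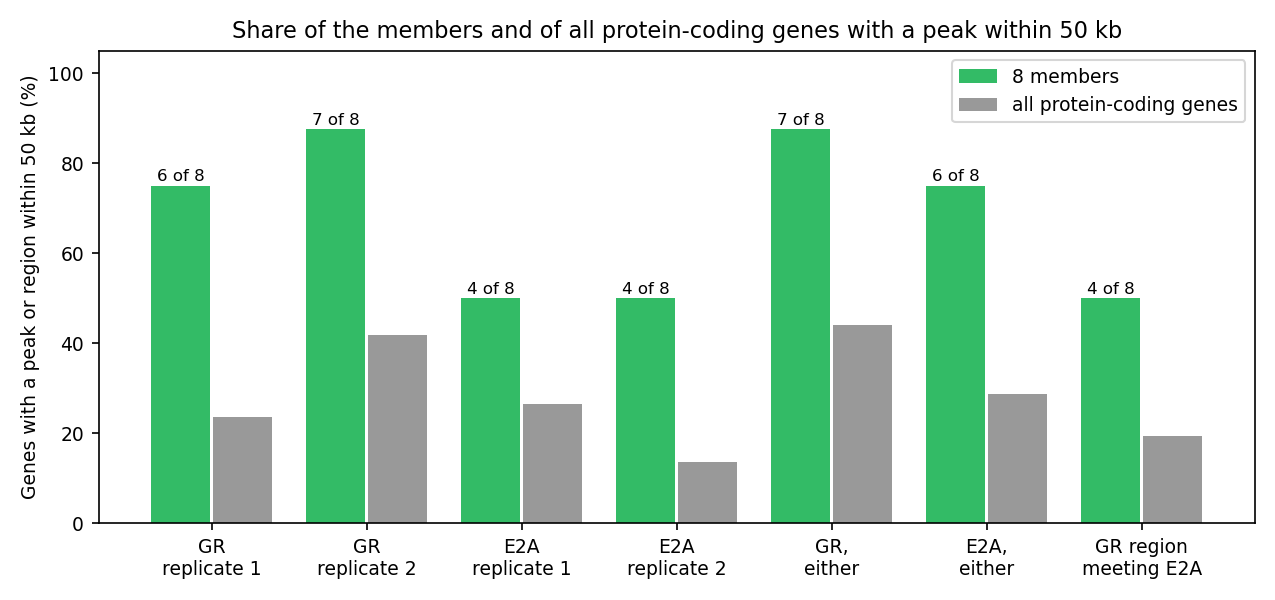
Percent of the 8 genes (green, with the count above the bar) and of 21911 protein-coding genes (grey) with a peak within 50 kb, by sample, over both replicates, and for GR regions that meet an E2A region. The green bar is the taller one in every pair, with 7 of 8 against 44.0% for GR in either replicate.

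The 2 GR samples gave the same regions near these genes where the shorter list had them. Each of the 12 peaks of GR replicate 1 met one of replicate 2, and 12 of the 20 peaks of replicate 2 met one of replicate 1, so that 12 of the 20 GR regions were called in both, against 30.2% of the 7515 GR regions near any gene. The E2A samples shared less, with 3 of 9 peaks of replicate 1 and 3 of 7 of replicate 2 meeting each other. Called in both were 3 of 13 E2A regions, against 23.3% of the 3941 E2A regions near any gene. The description of E2A replicate 2 names a GR ChIP in E47-/- mice. Of its 7 peaks, 3 met GR replicate 1, 4 met GR replicate 2, the longest list, and 3 met E2A replicate 1. Of the 9 peaks of E2A replicate 1, 3 met GR replicate 1, 3 met GR replicate 2 and 3 met E2A replicate 2. For these pairs of samples the shares over the whole lists were not computed. The pairwise counts therefore cannot be read as high or low, nor do they show which description of a sample is right. Without E2A replicate 2, 9 E2A regions and 3 shared regions were left. The share of GR regions that met an E2A region, 5 of 20, stood beside 30.6% of GR regions near any gene.

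*Cpt1a* encodes the liver carnitine palmitoyltransferase of the outer mitochondrial membrane, the step that sets the rate at which long-chain fatty acids enter mitochondria (chr19:3322334-3385733, plus strand). Its GR regions were a cluster of 4 downstream of the start, at 863, 1610, 2549 and 3991 bp, each called in both replicates, with a further one in intron 3 at 31334 bp that was called in replicate 2 alone. The most upstream of these carries the promoter label in the deposited annotation, because it covers the start of the transcript used there, 967 bp into the GENCODE gene, and the other 3 of the cluster lie in intron 1. In replicate 1 the 4 peaks were 348, 406, 395 and 485 bp wide, and in replicate 2 they were 461, 601, 896 and 610 bp wide, so that each was wider in replicate 2. The centre of the widest region is shown because it lies in the middle of the cluster, and its 300 bases hold 1 E-Box (capitals) and no GRE.
Cpt1a intron 1 GR region, chr19:3325181-3325480: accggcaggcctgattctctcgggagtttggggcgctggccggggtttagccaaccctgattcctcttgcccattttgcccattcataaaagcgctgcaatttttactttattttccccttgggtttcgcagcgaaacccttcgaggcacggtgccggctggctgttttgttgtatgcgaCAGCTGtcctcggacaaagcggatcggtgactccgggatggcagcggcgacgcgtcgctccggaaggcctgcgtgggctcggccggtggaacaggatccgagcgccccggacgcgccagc

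E2A was called at *Cpt1a* on either side of the GR cluster and in replicate 1 alone, at 1876 bp upstream of the start, outside any gene, and in intron 1 at 10962 and 11910 bp. The widths were 323, 352 and 378 bp. None of the 3 met a GR region, and the smallest gap between the 2 proteins was 2738 bp. The E2A region at 10962 bp held 4 E-Boxes at its centre and the C/EBP motif TTGCGTAA.

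**Figure D3:**
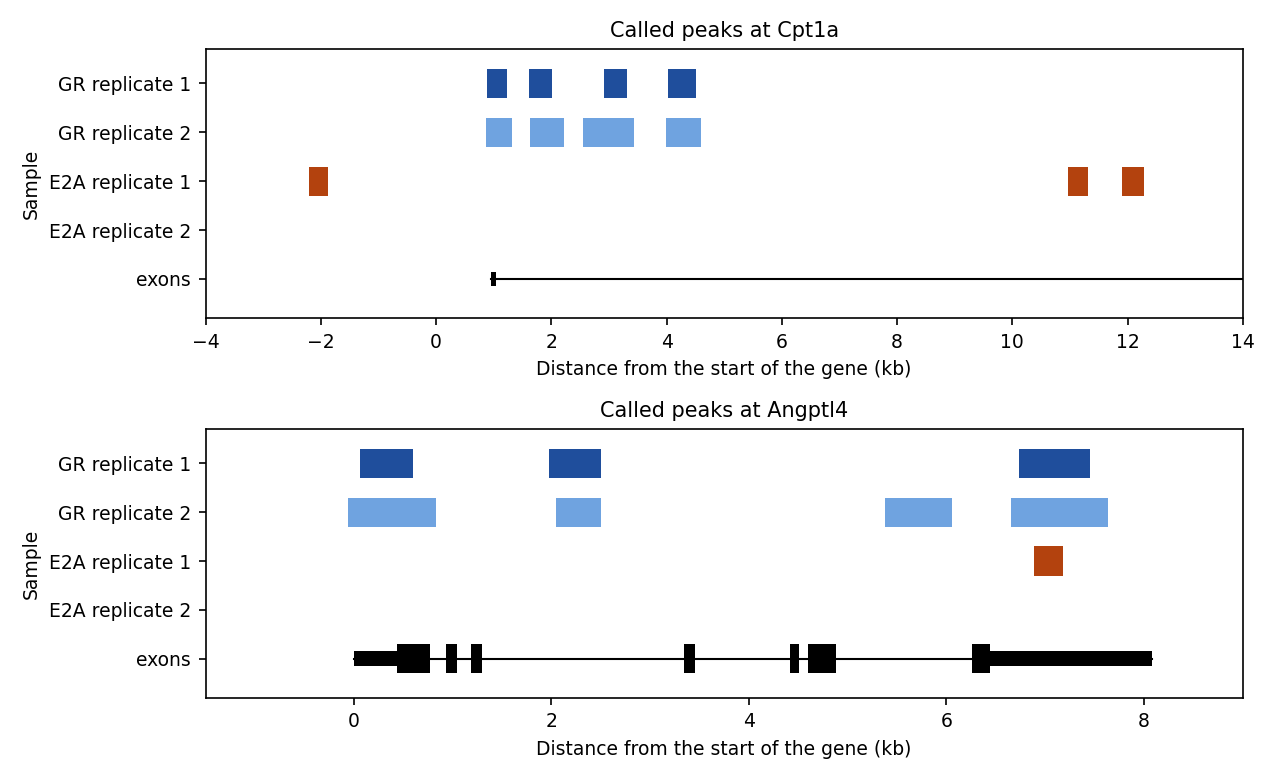
Called peaks (coloured blocks, to scale) at Cpt1a and Angptl4 in each sample, with the exons of the transcript that has the longest coding sequence in black, taller where they code. The x axis is the distance from the start of the gene record in kb, and the Cpt1a transcript drawn begins further downstream. The 4 GR blocks at Cpt1a lie in both GR samples between the E2A blocks, and at Angptl4 the E2A block lies within both GR blocks in the 3′ UTR.

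*Cpt2* encodes the carnitine palmitoyltransferase of the inner mitochondrial membrane, which turns acylcarnitines back into acyl-CoA (chr4:107903981-107923610, minus strand). A GR region over its start (chr4:107923319-107923613) was called in both replicates, 263 and 284 bp wide, and covered coding and 5′ UTR bases of the first exon. A second GR region, in intron 1 at 1249 bp (chr4:107922066-107922361), was called in replicate 2 alone. It is the one with the GRE shown above, 19 bp from its centre at chr4:107922225-107922239. No E2A peak lay within 50 kb, and the closest E2A region was 147694 bp from the GR region at the start.

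*Ehhadh* encodes the bifunctional enzyme of peroxisomal beta-oxidation and is a classical PPARα target (chr16:21761287-21787807, minus strand). The GR region over its start, 339 bp wide, was called in replicate 2 alone and met no E2A region, the closest being 6327 bp away. Upstream, a GR region at 6283 bp, in replicate 2 alone, met an E2A region of replicate 2 at the promoter of the non-coding gene *1300002E11Rik*. Both regions also overlapped 101 UTR bases of the neighbouring coding gene *Map3k13*. A second shared region lay 40416 bp upstream within an intron of the neighbouring gene *Map3k13*, called in both GR replicates and in E2A replicate 2. E2A replicate 2 had a further peak of its own at 30368 bp upstream. All E2A peaks near *Ehhadh* thus came from replicate 2, while all those at *Cpt1a* came from replicate 1.

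The stretch that the 3 peaks of the region at 40416 bp have in common is printed because it is a tandem repeat.
Ehhadh upstream, shared by GR and E2A, chr16:21828375-21828548: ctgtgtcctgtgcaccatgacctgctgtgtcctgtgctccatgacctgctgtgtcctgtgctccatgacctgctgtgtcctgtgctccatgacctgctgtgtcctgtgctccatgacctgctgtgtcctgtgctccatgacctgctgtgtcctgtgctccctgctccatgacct
Shifted by 24 bases against itself, 92.7% of its bases were the same. Over the whole GR region the value was 73.1%, while the other 19 GR regions lay between 28.8% and 36.4% at their best shift of 2 to 60 bases. The E2A region was likewise the highest of its 13, the other 12 lying between 28.5% and 37.7%. Of all GR regions 0.239% and of all E2A regions 0.418% were as high. As the stretch was picked for its repeat, this rarity tests nothing about it. The part of the repeat in these peak calls was not tested.

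*Acadm* encodes the medium-chain acyl-CoA dehydrogenase of mitochondrial beta-oxidation (chr3:153922357-153944632, minus strand). It had no GR region of its own, but it had the only E2A region with one of the 8 genes as the nearest that was called in both replicates. These peaks, 416 and 377 bp wide, lay 14625 bp into the gene (chr3:153929592-153930007), with 35 bases in coding exon 10 and 381 in the intron before it, which a retained-intron transcript also covers. The closest GR region was 16260 bp away. This was at the promoter of the next gene, *Rabggtb*, a subunit of a prenyltransferase for Rab proteins, 31301 bp from the start of *Acadm*, and it was called in all 4 samples, with widths of 389 and 718 bp for GR and 561 and 472 bp for E2A.

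The centre of the E2A region within *Acadm* is given because it holds no E-Box but an exact cAMP response element (CRE) TGACGTCA, the site of the CREB and ATF family, in capitals.
Acadm intron E2A region, chr3:153929650-153929949: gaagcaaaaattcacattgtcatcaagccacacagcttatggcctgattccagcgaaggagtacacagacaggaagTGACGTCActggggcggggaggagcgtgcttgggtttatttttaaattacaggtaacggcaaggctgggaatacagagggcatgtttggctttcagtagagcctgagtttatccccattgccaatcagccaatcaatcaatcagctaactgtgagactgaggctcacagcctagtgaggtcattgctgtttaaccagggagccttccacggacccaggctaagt
The only other region with this CRE in its 300 central bases was the shared one at the *1300002E11Rik* promoter upstream of *Ehhadh*. The bases around both are set side by side.
Acadm, CRE in capitals, chr3:153929715-153929744: cagacaggaagTGACGTCActggggcgggg
Ehhadh upstream, CRE in capitals, chr16:21794287-21794316: tgtgtcggaagTGACGTCAtacgcggaagc
Both hold the 13 bases GGAAGTGACGTCA, which were picked as the longest run that both stretches share. Over whole regions, 4.54% of E2A regions and 2.46% of GR regions held the CRE. All 13 bases, on either strand, were held by 0.23% and 0.114%. Of the regions with the CRE, 5.07% for E2A and 4.63% for GR held them. As the run was taken from these same sites, its rarity tests nothing about them.

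*Pdk4* encodes a pyruvate dehydrogenase kinase that spares glucose during fasting by switching off pyruvate oxidation (chr6:5483351-5496309, minus strand). It is known as a glucocorticoid-induced gene, yet no GR peak and no E2A peak lay within 100 kb of its start in any of the 4 samples. It was the only one of the 8 genes without a peak within 50 kb, where 44.0% of all protein-coding genes had a GR peak.

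*Fgf21* encodes the hormone that the fasting liver secretes under PPARα control (chr7:45613886-45615490, minus strand). Neither protein was called in or next to it. The closest GR region, in both replicates, was 40079 bp away at the promoter of *0610005C13Rik*, within the gene *Bcat2*, an aminotransferase of branched-chain amino acids. A region 46840 bp away (chr7:45567596-45568650), for which *Bcat2* is the nearest gene in the annotation, was called in all 4 samples, with widths of 675 and 1055 bp for GR and 770 and 830 bp for E2A. This was the farthest region but one within the limit of 50 kb, and the assignment to *Fgf21* rests on distance alone. Its GR part overlapped 157 UTR bases of the coding gene *Hsd17b14*.

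*Angptl4* encodes a secreted inhibitor of lipoprotein lipase that rises with fasting and with glucocorticoids (chr17:33773750-33781830, minus strand). GR was called along the whole gene. In both replicates there were regions over the start (539 and 892 bp wide), in intron 3 at 1981 bp (524 and 462 bp) and in the 3′ UTR at 6656 bp (722 and 982 bp), and a region in intron 6 at 5381 bp, 678 bp wide, was called in replicate 2 alone. Intron 3 is shown for its 300 central bases, which hold the C/EBP motif TTGCCTAA and 2 E-Boxes in capitals.
Angptl4 intron 3 GR region, chr17:33779436-33779735: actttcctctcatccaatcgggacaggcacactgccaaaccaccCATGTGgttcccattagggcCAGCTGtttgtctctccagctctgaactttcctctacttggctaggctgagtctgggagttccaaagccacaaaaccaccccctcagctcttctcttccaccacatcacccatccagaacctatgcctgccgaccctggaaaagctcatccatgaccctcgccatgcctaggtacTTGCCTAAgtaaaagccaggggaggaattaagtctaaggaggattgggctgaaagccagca

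The 3′ UTR region was the single place at which E2A met GR within one of these genes. The E2A peak of replicate 1 (chr17:33774651-33774948, 298 bp wide) lay inside both GR peaks, and E2A replicate 2 had no peak there. The exact GRE printed above, at chr17:33774891-33774905, was inside all 3 peaks, 215 bp from the centre of the GR region and 99 bp from that of the E2A region. An exact GRE anywhere in the region was held by 18 of all 8795 GR regions, or 0.205%, and by 3 of all 4783 E2A regions, or 0.0627%. As the site was singled out as the only exact match near these genes, its rarity tests nothing about it. The same E2A peak also held the forkhead motif TGTTTAC. Farther out, GR replicate 2 alone was called upstream near *Rps28* at 42521 bp and in *Ndufa7* at 46927 bp, and E2A replicate 1 alone downstream at the *Rab11b* promoter at 21544 bp and upstream in *Kank3* at 35405 bp.

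*Plin2* encodes the main coat protein of hepatic lipid droplets (chr4:86648386-86670060, minus strand). One GR peak of 1268 bp, wider than 96.0% of the peaks of its list, covered the start in replicate 2 and had no counterpart in replicate 1. One E2A peak of 260 bp was called 20231 bp upstream in replicate 2 alone, outside any gene and 20127 bp from the GR peak. It is printed as the only one of the 33 regions with 2 C/EBP motifs at its centre, TTGCTCAA on the plus strand and TTGCGTAA on the minus strand, in capitals together with 1 E-Box.
Plin2 upstream E2A region, chr4:86690291-86690550: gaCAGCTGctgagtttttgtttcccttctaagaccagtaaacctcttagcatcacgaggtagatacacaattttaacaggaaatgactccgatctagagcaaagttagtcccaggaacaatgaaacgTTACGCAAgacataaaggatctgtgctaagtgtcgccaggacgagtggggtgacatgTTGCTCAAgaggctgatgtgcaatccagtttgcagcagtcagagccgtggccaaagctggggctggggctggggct

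Most of the 33 regions held an E-Box, as most regions in the lists do, and few held another of the motifs. In the 300 bases at the centre, on both strands, CANNTG was found in 15 of 20 GR regions (beside 68.9% of all GR regions) and in 9 of 13 E2A regions (beside 72.8% of all E2A regions). CANNTG is short and no unbound sequence was scanned. These shares therefore do not show whether the E-Box is more frequent in bound regions than elsewhere. A GRE with up to 2 mismatches in the fixed bases was found in 1 of 20 GR regions (5.42% of all) and 1 of 13 E2A regions (2.09% of all), and over the whole length in 4 of 20 GR regions (7.5% of all). The C/EBP motif TTGCNNAA was found in 2 of 20 GR regions (14.6% of all) and 2 of 13 E2A regions (21.6%), the forkhead motif TGTTTAC in 0 of 20 (5.06%) and 2 of 13 (8.17%), and the CRE in 1 of 20 (1.85%) and 2 of 13 (3.66%). The DR1 motif of nuclear receptors, which is not assigned here to any one receptor, is AGGTCA repeated with 1 base between. With up to 2 mismatches it was found in 0 of 20 GR regions (7.83% of all) and in 1 of 13 E2A regions (8.05%). That E2A region is the one upstream of *Plin2*, where the match lies just outside the edge of the peak. CACGTG, which is also an E-Box, was found in 1 of 20 GR regions (7.95%) and 0 of 13 E2A regions (8.38%).

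Near these genes 9 of 12 peaks of GR replicate 1 and 13 of 20 of GR replicate 2 were wider than the median of their list, with medians of 400.5 bp against 372 bp and of 477.5 bp against 408 bp. For E2A it was 3 of 9 and 3 of 7, with medians of 353 bp against 378 bp and of 309 bp against 349 bp. Width depends on the depth and the threshold of the peak caller and is no measure of binding strength.

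**Figure D4:**
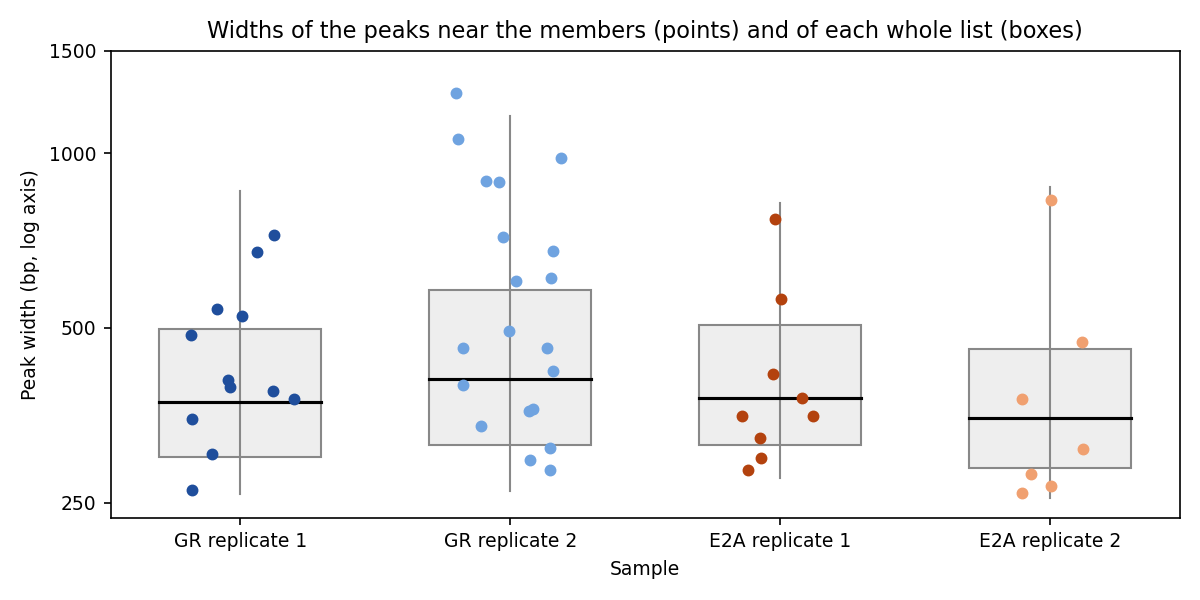
Width in bp (log axis) of each peak within 50 kb of the 8 genes (points) by sample, with the whole list of the sample as a box from the 25th to the 75th percentile, a bar at the median and a line from the 5th to the 95th percentile. The points run from 263 to 722 bp and from 284 to 1268 bp for GR and from 285 to 770 bp and from 260 to 830 bp for E2A, and the widest, 1268 bp, is the GR peak over the start of Plin2.

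The wider programme was described with 61 further genes in 8 lists, also chosen with earlier results of these data known. Within 50 kb, 55 of 61 (90.2%) had a GR region, 45 (73.8%) an E2A region and 36 (59.0%) a shared one, and 10 (16.4%) had a region called in all 4 samples, which 4.44% of all protein-coding genes and 2 of the 8 genes, *Fgf21* and *Acadm*, had too. A GR promoter peak named 40 of the 61 (65.6%) and an E2A promoter peak 16 (26.2%). The same background shares as above apply, 44.0%, 28.7%, 19.4%, 18.3% and 7.86% of all genes for a GR peak, an E2A peak, a shared region, a GR promoter peak and an E2A promoter peak.

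Of 6 genes of mitochondrial carnitine and CoA entry, 6 had a GR region and 5 an E2A region, and the long-chain acyl-CoA synthetases *Acsl1* (over the start, 1688 bp wide) and *Acsl5* (at 5659 bp) had one called in all 4 samples. Of 14 genes of mitochondrial beta-oxidation, 14 had a GR region, though only 6 in replicate 1, and 10 an E2A region. Here the thiolase *Acaa2* had a region over its start in all 4 samples. Of 8 genes of peroxisomal and omega oxidation, 6 had a GR region and 7 an E2A region, with all 4 samples called at the thiolase *Acaa1a* (1253 bp from the start).

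Of 4 genes of ketone body synthesis, 4 had a GR region and 2 an E2A region, with 0 called in all 4 samples. Of 9 fasting regulators, 9 had a GR region and 8 an E2A region, and 4 had a region called in all 4 samples, the transcription factors *Cebpb* (over the start), *Creb3l3* (at 5846 bp), *Klf15* (at 29486 bp) and *Rxra* (49463 bp upstream). Of 10 genes of lipid uptake, droplets and lipolysis, 9 had a GR region and 8 an E2A region, with 0 called in all 4. The lipase *Lipe* had neither.

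*Pdk4* was not alone among its relatives. Of 4 pyruvate dehydrogenase kinases and related genes other than *Pdk4*, 3 had a GR region and 1 an E2A region, and *Pdk3* had neither. Of 6 relatives of *Angptl4* and *Fgf21*, 4 had a GR region and 4 an E2A region. *Angptl8*, which acts on the same lipase as *Angptl4*, had a region called in all 4 samples 3377 bp upstream of its start, nearest to *Dock6* in the annotation.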

How the data were processed

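GR and E2A ChIP-Seq peak lists of 4 samples of wild-type mouse liver were used, with GR and E2A taken from the same livers by the study's text. By the study's methods, read pairs were mapped on mm10 (BWA-MEM), cleared of duplicates (Picard), restricted to unique hits and thinned to 18 mio pairs per GR and 22 mio per E2A sample, and MACS2 peaks were called for each sample on its own by the authors. The submitters' processing notes name BWA 0.7.13, Picard 1.119 and MACS2 2.1.0, while the study's methods give other versions of Picard and MACS2. The deposited values used are start, end and width in bp and the distance to the nearest start site in bp. They are not normalized, and no column holds counts, heights or q-values. A second copy of each list with coordinates only was not used.

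Peaks were joined and compared with Python 3.11.15, pandas 2.3.3 and numpy 2.4.6, sequences read with pysam 0.24.0, and the permutation test run with scipy 1.17.1. Gene starts were those of GENCODE vM21 gene records on GRCm38, and sequences came from the RefSeq copy of GRCm38.p6. Of 6510 genes in the lists with a RefSeq record, 6500 overlapped it there (99.8%), and all 17545 peaks ended within their chromosome. Peaks labelled as promoter lay from -1000 to 500 bp of the deposited start site. Joining peaks, finding regions near gene starts, marking shared regions and the motif search were tested on simulated peaks and motifs. The other steps were not tested in this way.

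The 8 genes, the wider lists and the markers were chosen with earlier results of these data known. The 8 genes are described in full. From the wider lists, counts are given for each list, and genes with a region called in all 4 samples within 50 kb are named, up to 4 per list in alphabetical order, except that some are not reported here. Other genes are named as the nearest gene of a peak, as lacking any peak, or as markers. Alternatives were limits of 25 and 100 kb, starts of any transcript, the deposited nearest gene, an overlap of 50%, regions of both replicates, the 1892 widest peaks per sample, peaks of at most 2000 bp and leaving out each sample.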

Additional observations from a re-analysis of the deposited data

How the results depend on the processing

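The counts of regions depended on the distance limit, the assignment to genes, the call in both replicates and the length of the lists. Against 20 GR regions, 13 E2A regions and 5 shared regions, a limit of 25 kb left 13, 8 and 2, and one of 100 kb gave 31, 17 and 8. The deposited nearest gene left 13, 6 and 1, regions called in both replicates left 12, 3 and 2, and the 1892 widest peaks of each sample left 10, 7 and 2. Members with a shared region fell from 4 to 2 at 25 kb, to 1 by the nearest gene, to 2 with both replicates and to 2 with the widest peaks, and members with an E2A region fell from 6 to 2 with both replicates. Starts of any transcript, an overlap of 50% and peaks of at most 2000 bp changed none of the counts of members or regions, and members with a GR region stayed between 5 and 7 under each alternative.

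Leaving out 1 sample, members with a GR region ranged from 6 to 7, GR regions from 12 to 20 (12 without GR replicate 2), members with an E2A region from 4 to 6, E2A regions from 7 to 13 (7 without E2A replicate 1), members with a shared region from 3 to 4, shared regions from 3 to 5 (3 without E2A replicate 2) and members with a GR promoter peak from 3 to 5 (3 without GR replicate 2). The difference in mean peak number, 8.0, ranged from 4.0 to 12.0, with no test in a group of 1 sample, and was 6.0 at 25 kb and 11.5 at 100 kb, both with an exact permutation p of 0.333. The GREs in GR regions, 1 of 20 at the centre, were 1 in 200 bases, 0 with up to 1 mismatch and 4 over the whole region. The settings for GREs, promoter peaks and the difference in mean, the block included, were chosen after seeing the data. With the replicate block, which pairs samples by the number in the labels, the difference was 8.0 with an exact permutation p of 0.5. The numbers are not stated to mark a shared liver. The other counts come from no test, and no block applies to them. Without heights or read counts, nothing shows how close an uncalled region came to the threshold.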

Other observations

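Between 50 and 100 kb of *Fgf21*, outside the limit used above, peaks were dense. A region about 89 kb downstream at the promoter of *Ppp1r15a*, a stress-induced phosphatase subunit, was called in all 4 samples, with distances of 89222 and 89023 bp for GR and 88924 and 88894 bp for E2A. On the upstream side, GR replicate 2 had 4 peaks at the clock-controlled transcription factor gene *Dbp*, at 88662, 89452, 90412 and 91138 bp, and GR replicate 1 had none there. A further GR peak of replicate 2, 94305 bp upstream and 1874 bp wide, met the E2A peaks of replicate 1 at 94281 and 95218 bp in the 3′ UTRs of *Dbp* and *Sphk2*. The nearest regions just outside the limit at the other genes were at 63052 bp for *Angptl4*, at 74401 bp for *Cpt1a* and at 78382 bp for *Plin2*, all of them GR peaks.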
